A study of Mus musculus with 2 samples.

Results

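A set of Csf1r-positive cells with little C1q RNA was followed through both libraries of an osteosarcoma model. Its members were barcodes that held at least 3 of 8 marker genes, Slc7a2, Inhba, Flrt3, Areg, Sdc1, Il10, Pdpn and Mmp19. There were 771 members under control IgG and 1472 under anti-CD3L1, 2243 of 19826 barcodes kept in all. The cells came from tumors of 143B, an established human osteosarcoma cell line, grown in female nude mice that were 4 weeks old at inoculation and that lack T cells of their own. Mice of one group received 10 mg/kg of a human IgG1 isotype control (control IgG) and those of the other 10 mg/kg of an antibody against CD3L1 (anti-CD3L1), every 3 days for 4 doses. CD3L1 is the protein of the gene ITPRIPL1, written Itpripl1 in the mouse, and the study asked how blocking it changes tumor macrophages. Magnetic beads that bind CD45, which immune cells carry on their surface, were used to enrich the cells, and each group gave 1 library from 3 tumors, whose cells carry no mark of their tumor. Treatment, tumors and library therefore cannot be told apart and nothing could be tested across samples. Every interval below is a 95% interval that covers counting error only.

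Activin A is a dimer of the protein that Inhba encodes, a secreted factor of the TGF-beta family that macrophages release when they are activated. Slc7a2 encodes a transporter of cationic amino acids that brings arginine into macrophages, where it feeds among others the making of nitric oxide. Areg encodes amphiregulin, a ligand of the EGF receptor linked to tissue repair, and Il10 a cytokine that dampens inflammation. C1q, the complement component that starts the classical pathway, is made by many tissue macrophages. Its RNA was used here to split the Csf1r-positive barcodes, and the origin of the cells was not measured.

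Every member was a barcode with at least 500 unique molecular identifiers (UMIs, each marking 1 captured RNA molecule), more than 200 and fewer than 6000 genes, and under 5% mitochondrial UMIs. It further had at least 1 UMI of Csf1r, the receptor of the macrophage growth factor CSF1. C1qa, C1qb and C1qc together made up under 0.1% of its UMIs, S100a8 and S100a9 under 2%, and the interferon-induced genes Ifit2, Ifit3 and Cmpk2 under 0.1%. The members were thus chosen by their measured UMIs of Csf1r, C1q, the S100 and interferon-induced genes and the 8 marker genes, and the levels of these genes are described without a test. Members were set beside C1q-low non-members, which met the same limits with fewer than 3 marker genes (930 and 2436 barcodes in the control IgG and anti-CD3L1 libraries), and beside C1q-high barcodes, with C1q at 0.1% or more and any number of marker genes (341 and 3073). Throughout, the control IgG value is given first.

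The promoters of Areg and Inhba are shown because Areg was the marker gene with the largest difference between the libraries and Inhba the one that names the set. Each line gives the 150 bases before the RefSeq start site of GRCm38.p6, 5′ to 3′ on the gene's strand, with capitals at matches to TGACGTCA, the palindrome known as the cAMP response element, and to TATAAA, the TATA box.
Areg, chr5:91139449-91139598, plus strand: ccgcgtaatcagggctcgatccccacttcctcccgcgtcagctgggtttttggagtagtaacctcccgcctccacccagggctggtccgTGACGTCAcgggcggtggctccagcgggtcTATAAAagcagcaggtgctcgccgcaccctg
Inhba, chr13:16011701-16011850, plus strand: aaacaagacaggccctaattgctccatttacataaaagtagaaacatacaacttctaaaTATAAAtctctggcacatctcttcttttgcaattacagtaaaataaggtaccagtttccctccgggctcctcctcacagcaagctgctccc
In Areg the cAMP response element began 61 bases before the start site and the TATA box 31 bases before it, while in Inhba the TATA box began 91 bases before it. Windows from 250 bases before to 50 bases after the start site were searched on both strands for 5 of the 8 marker genes, those matched by symbol (Areg, Flrt3, Inhba, Pdpn and Sdc1). TGACGTCA was in 1.79% of all 32851 such mouse windows and TATAAA in 13.6%. TGANTCA, the AP-1 site, was in none of the 5 windows and in 7.81% of all. ACGTG, the core of the hypoxia response element, was in that of Pdpn and in 19.6% of all. These matches describe the letters of the windows and no binding was measured.

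Members made up 9.01% (exact binomial interval 8.41 to 9.64) of the kept control IgG barcodes and 13.1% (12.45 to 13.7) of the kept anti-CD3L1 barcodes. The kept barcodes of the control IgG library included 3785 with over 2% S100a8 and S100a9 and no Csf1r, against 389 in the other library, so that the denominators differ in kind. Among Csf1r-positive barcodes the shares were closer, 18.8% (17.6 to 20.1) and 19.9% (19.0 to 20.8). Among C1q-low barcodes members were 45.3% (42.9 to 47.7) and 37.7% (36.1 to 39.2), but the C1q-low barcodes of the control IgG library were deeper. At 3000 UMIs each, 17.2% (15.4 to 19.2) of 1625 and 18.2% (16.9 to 19.4) of 3720 C1q-low barcodes held at least 3 marker genes, and these intervals overlapped. The limit of 3 marker genes cut through a continuous range. Exactly 3 marker genes were found in 328 and 590 members, while 411 and 785 non-members held exactly 2, and all 8 genes were found together in 3 and 14 barcodes. At the C1q limit, 15 and 104 members lay at 0.05 to 0.1% C1q, and 9 and 91 barcodes with at least 3 marker genes lay just above, at 0.1 to 0.15%.

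Median depth was 13406 UMIs per member under control IgG and 9360 under anti-CD3L1, with 3253 and 2854 genes and 1.80% and 1.365% mitochondrial UMIs. Non-members were shallower, with medians of 11496.5 and 7875.5 UMIs, and a deeper barcode shows more marker genes. Shares of barcodes with a UMI of a gene are therefore given below after each barcode was thinned at random to 3000 UMIs, unless marked as before thinning. Those with at least 3 markers of a cell type list were read without thinning, so depth enters them. Before thinning, C1q was at 0 UMIs in 83.5% of control IgG members and in 46.1% of anti-CD3L1 members. The libraries shared 26 kept barcodes, and no member barcode of one was a member in the other.

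The name macrophage was checked against marker lists. All 14 macrophage markers were above 0 in the members of both libraries, and 99.9% of members in each held at least 3 of them. Csf1r, among these markers, was required by the rule. C1q-low non-members held at least 3 in 98.5% and 98.4%, and barcodes with over 2% S100a8 and S100a9 and no Csf1r in 86.6% and 73.8%. NK-like barcodes, with no Csf1r UMI and at least 3 of 8 NK cell markers, did so in 17.0% and 24.9%. High shares were thus not particular to members. Lyz2, the lysozyme gene of myeloid cells, led the list with 11426 and 6555 CPM (UMIs of the gene per 1000000 UMIs of the set). Of the 10 macrophage markers that the rule did not use, 5 stood lower in members than in C1q-high barcodes in both libraries (among them Adgre1, Cd68, Mertk and Lgmn), 3 higher (Cd14, Itgam and, by little, Spi1), and Fcgr1 and Lyz2 had opposite orders in the libraries. Mertk, a receptor for dying cells, had 10.6 and 19.4 CPM in members against 71.3 and 51.6 CPM in C1q-high barcodes, and Adgre1, which encodes F4/80, had 164 and 108 CPM against 410 and 220.5 CPM. Cd14, a receptor for bacterial products, had 2041 and 1080 CPM against 848 and 644.5 CPM. At the same time 75.1% and 65.7% of members before thinning held at least 3 of 8 monocyte markers, against 19.9% and 30.6% of C1q-high barcodes. C1q-low non-members did so in 61.1% and 68.7%, so this was not particular to members. The members thus carried the markers of both cell types, and they are called by their genes here, as Inhba Slc7a2 C1q-low members.

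The 2 genes that name the set were not found in every member. Before thinning, Inhba was detected in 57.3% and 57.7% of members and Slc7a2 in 29.6% and 37.4%. At 3000 UMIs the shares were 30.9% (27.6 to 34.3) and 36.1% (33.6 to 38.7) for Inhba, and 15.1% (12.6 to 17.8) and 22.03% (19.9 to 24.3) for Slc7a2. Both genes were found together in 6.25% (4.64 to 8.20) and 10.6% (9.09 to 12.3) of thinned members. NK-like barcodes, which should lack them, had medians of 10660 and 8706 UMIs and gave 1.20% and 0.236% for Inhba at the same depth. For Slc7a2 they gave 0 of 167 and 6 of 848 barcodes (0.708%). At least 3 of the 8 marker genes remained in 36.5% and 46.7% of thinned members, in 8.28% and 16.0% of thinned C1q-high barcodes and in no thinned NK-like barcode of either library. Thinned barcodes with over 2% S100a8 and S100a9 and no Csf1r held at least 3 in 4 of 3144 and 2 of 65. They held Inhba in 7.57% and 13.85%, more than NK-like barcodes did.

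Inhba and Flrt3 had the smallest differences between the libraries among the marker genes. Inhba stood at 264 CPM (exact Poisson interval 254 to 274) in control IgG members and at 307.5 CPM (299 to 316) in anti-CD3L1 members, against 36.0 and 44.1 CPM in C1q-low non-members. Its log2 ratio between the libraries, here and below with control IgG as the denominator, was 0.22 (exact conditional binomial interval 0.15 to 0.29) in members and 1.88 in C1q-high barcodes, where it was 22.8 and 84.0 CPM. Flrt3, a membrane protein of cell adhesion, had 180 and 209 CPM in members, 36.8 and 31.7 CPM in non-members and 45.5 and 56.5 CPM in C1q-high barcodes. Both genes were higher in members than in either other set in each library. Only the members were required to hold marker genes, so this order is given as a description. Among C1q-low barcodes with at least 3 marker genes at 3000 UMIs, Inhba had 519 and 502.5 CPM and Flrt3 358 and 339 CPM.

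Slc7a2 and Areg had more CPM in the anti-CD3L1 members, which were chosen on these genes at a lower depth. Slc7a2 had 89.6 and 149 CPM in members, a log2 ratio of 0.74 (0.63 to 0.85), and stayed at 11.98 and 12.17 CPM in non-members. In C1q-high barcodes Slc7a2 was at 10.3 CPM in the control IgG library and at 76.7 CPM in the anti-CD3L1 library, so that C1q-high barcodes of the second library held it too. Areg had 143 and 323 CPM in members, a log2 ratio of 1.18 (1.10 to 1.26). It was the only marker gene past a log2 ratio of 1 or −1 between the libraries, where 4.09% of 3375 genes compared were at least 1 and 3.17% at most −1 (those that reached 50 CPM in the members of either library). Non-members had 42.9 and 47.6 CPM of Areg and C1q-high barcodes 40.1 and 104 CPM. Since the choice of members depended on depth, both genes were also read at equal depth. Among C1q-low barcodes with at least 3 marker genes at 3000 UMIs, Slc7a2 had 202 (173 to 235) and 247.5 CPM (226 to 270), and these intervals overlapped. Areg had 279 (244 to 317) and 513 CPM (483 to 545.5) there.

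Il10 and Mmp19 were higher, and Sdc1 and Pdpn lower, in the anti-CD3L1 members, each by less than a log2 ratio of 1. Il10 had 277 and 437 CPM in members against 108 and 148 CPM in non-members. In C1q-high barcodes of the control IgG library it stood at 296.5 CPM, and the log2 ratio of members over these was −0.10 (−0.19 to −0.01), so Il10 was no higher in members there. Mmp19, a matrix metalloproteinase, had 106 and 198 CPM in members and 64.1 and 111.5 CPM in C1q-high barcodes. Sdc1, a heparan sulfate proteoglycan that holds growth factors at the cell surface, had 173 and 109 CPM in members, and Pdpn, the ligand of the platelet receptor CLEC-2, had 142 and 88.9 CPM. Their log2 ratios were both −0.67 in members and lower still in non-members, at −2.04 for Sdc1 and −1.39 for Pdpn. RNA free in the droplets, read from barcodes with under 100 UMIs, held every marker gene as well, from 12.5 CPM of Slc7a2 to 113 CPM of Il10 in the control IgG library and from 35.9 CPM of Pdpn to 261 CPM of Il10 in the other.

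**Figure D1:**
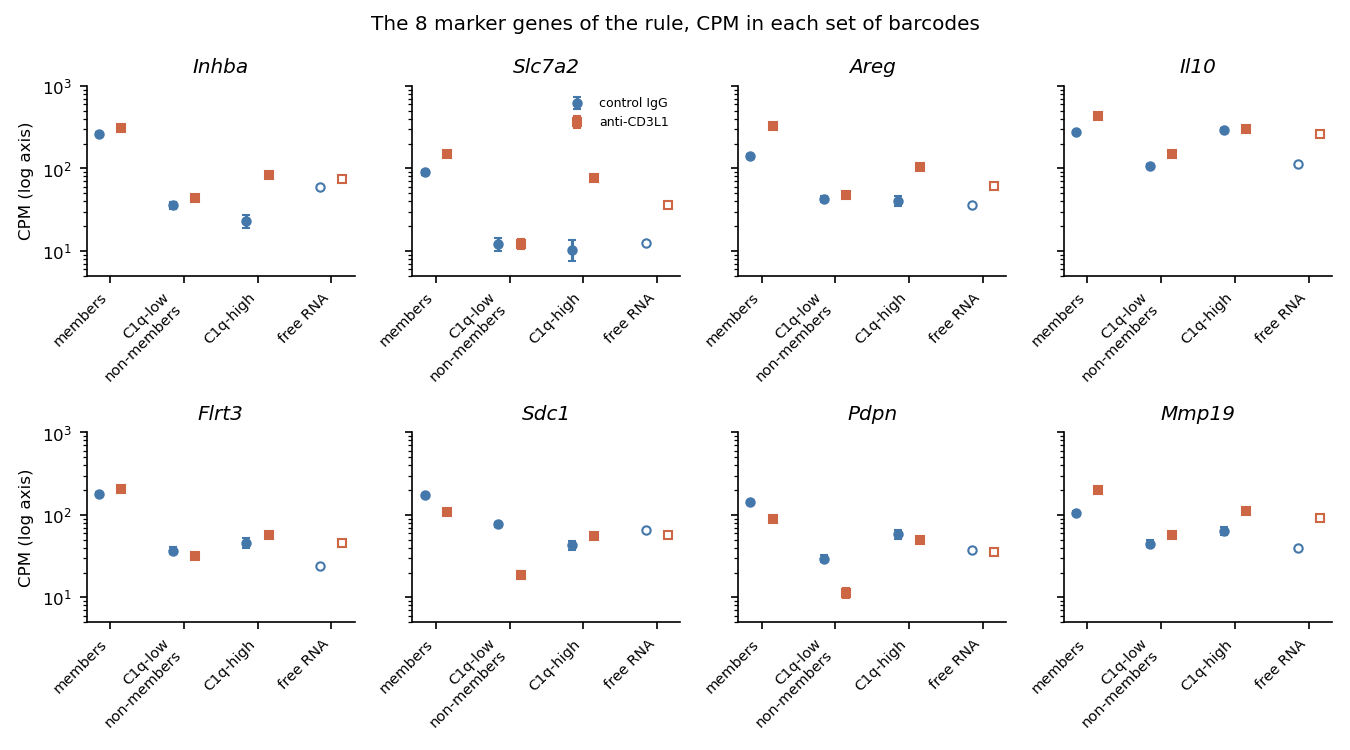
CPM (log axis) of the 8 marker genes in members, C1q-low non-members, C1q-high barcodes and free RNA of the control IgG (circles) and anti-CD3L1 (squares) libraries, with exact Poisson 95% intervals for the 3 sets of barcodes that cover counting error only. The rule chose members on these genes. Members are highest for all genes except Il10 of the control IgG library, where C1q-high barcodes reach 296.5 CPM against 277 CPM in members.

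How often the marker genes were found together is given as a description, since the members were chosen on these genes. In C1q-low barcodes thinned to 3000 UMIs, each marker gene was scored by how many of the other 7 the barcode held. Slc7a2 was found in 4.12% (2.54 to 6.30) of control IgG barcodes with none of the other genes and in 14.2% (11.5 to 17.3) of those with 2 or more, and in 3.4% (2.48 to 4.54) and 18.0% (15.9 to 20.2) of the anti-CD3L1 barcodes. For Flrt3 these shares were 13.7% and 31.8% in the control IgG library, and 8.89% and 33.2% in the other. At this depth all 8 genes had a higher share beside 2 or more others than beside none, in both libraries, with overlapping intervals for Mmp19 under control IgG. In the control IgG library the intervals also overlapped for Mmp19, Il10 and Sdc1 at 1500 and 5000 UMIs and for Areg at 5000 UMIs, and at 1500 UMIs Il10 was at 13.6% (11.5 to 16.0) beside none, 17.8% beside 1 and 15.8% (11.4 to 21.0) beside 2 or more. The ratio of these shares was between 1.31 (Mmp19) and 3.45 (Slc7a2) under control IgG and between 1.83 (Il10) and 5.29 (Slc7a2) under anti-CD3L1. Mmp19 and Il10 went with the others least in the control IgG library, from 15.5% to 20.3% and from 20.1% to 28.7%.

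**Figure D2:**
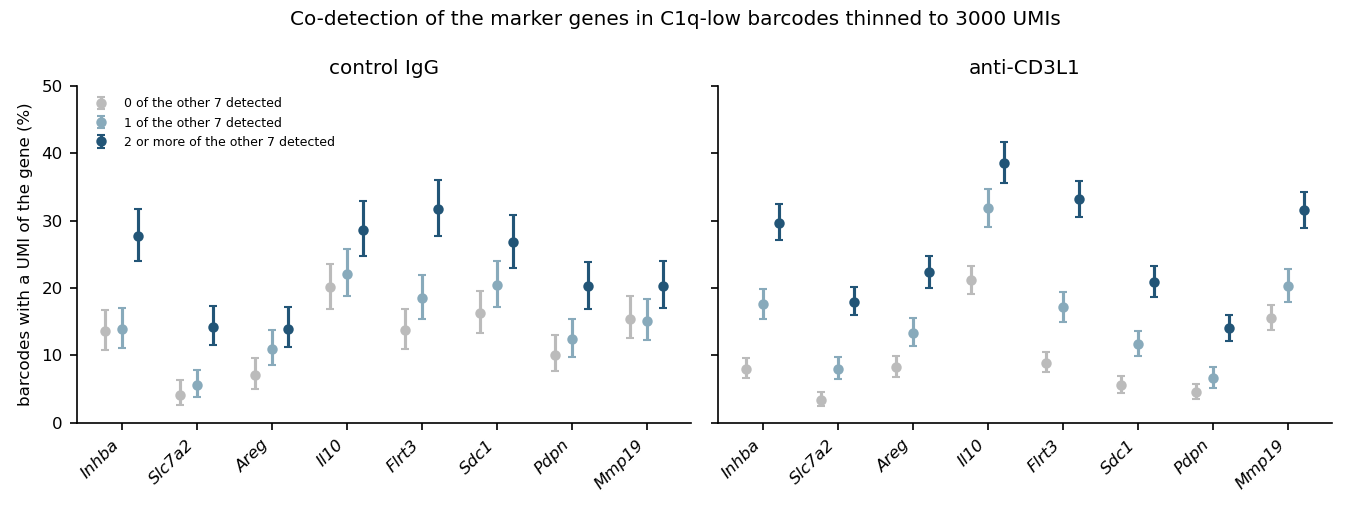
Share of C1q-low barcodes with a UMI of each marker gene (%), by how many of the other 7 marker genes the same barcode held, after thinning to 3000 UMIs, with exact binomial 95% intervals. The share with 2 or more others is the highest for each of the 8 genes in both libraries, for example 31.8% and 33.2% for Flrt3.

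Against C1q-low non-members of the same library, few genes apart from the marker genes stood out. Of 3032 genes compared, 16 (0.528%) had a log2 ratio of at least 1 in both libraries and 6 (0.198%) of at most −1, and the 8 marker genes are among the 16 because the rule chose on them. Ptgs2 and Il1a were among the higher genes. Ptgs2, which encodes the inducible cyclooxygenase COX-2, had 480 and 268 CPM in members against 218 and 106 CPM in non-members. Its log2 ratios were 1.14 (1.07 to 1.21) and 1.34 (1.27 to 1.42). Il1a, an alarmin cytokine, had 294 and 264.5 CPM against 140.5 and 72.1 CPM, with log2 ratios of 1.06 and 1.88. Ptgs2 or Il1a was found in 59.4% and 57.3% of members at 3000 UMIs, in 40.3% and 27.3% of non-members and in 3.59% and 1.89% of NK-like barcodes.

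The other genes past this limit were Csf3, the granulocyte growth factor G-CSF, at log2 ratios of 1.06 and 1.68, Mmp12, the macrophage elastase, at 1.40 and 2.42, Il7r, the receptor subunit of IL-7 and TSLP, at 1.35 and 1.27, the calcium channel gene Cacna1d at 1.30 and 1.11, and the transcripts Gm15056 and Gm16685. Several were concentrated in few members. The 10 members with the most UMIs held 67.3% and 30.2% of the Mmp12 UMIs and 47.9% and 50.7% of those of Gm15056, but 10.6% and 5.76% of those of Il7r. Just below the limit were Cxcl1, a neutrophil-attracting chemokine, with 1027 and 1337 CPM in members and 525 and 429 CPM in non-members, and Il1rn, the IL-1 receptor antagonist, with 897 and 931 CPM against 464 and 448.5 CPM. Mir155hg, the host transcript of miR-155, had 197 and 346 CPM against 109 and 161 CPM.

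Immediate-early and heat shock genes were lower in members by the median of their list, though most of the list was not past the limit. The 6 genes with a log2 ratio of at most −1 were the transcription factor genes Fos, Atf3, Jun, Egr1 and Klf2 and the chaperone gene Hspa1a. Fos had 327 and 457 CPM in members and 705 and 1284 CPM in non-members, with log2 ratios of −1.11 and −1.49. Atf3 followed at −1.18 and −1.39, Jun at −1.08 and −1.48, Egr1 at −1.15 and −1.01, Klf2 at −1.09 and −1.86, and Hspa1a at −1.07 in both. With the limit at 4 marker genes in place of 3, only Fos and Hspa1a of these 6 stayed past −1 in both libraries, while under control IgG Atf3 was at −0.84, Jun at −0.92 and Klf2 at −0.85, and under anti-CD3L1 Egr1 was at −0.95. Of the 18 immediate-early and heat shock genes compared, 4 were past the limit downwards and 0 upwards, and the list's median was −0.66 and −0.53 against −0.03 in both libraries over all genes compared. The other 14 were not past it in both libraries. Among them were Hspa1b, at −0.898 and −0.9998, and the abundant genes Ier3, at 0.31 and 0.40, and Junb, at −0.09 and −0.07. Such genes are also known to respond when tissue is dissociated, which was not measured here.

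Other lists had few genes past the limit in both libraries. The 20 glycolysis and hypoxia genes compared had medians of 0.31 and 0.25 with none past the limit, and the 17 inflammatory genes had 0.37 and 0.51 with only Il1a past it. The other genes of the pathways that the marker genes belong to were near the median of all genes. None of 9 genes of the activin and TGF-beta pathway, 12 of the IL-10 pathway, 5 of the EGF receptor ligands and 9 of arginine use was past the limit in both libraries. Their medians lay between −0.07 and 0.23. Of 12 monocyte genes 0 were past it, but the list's median was 0.15 under control IgG and −0.77 under anti-CD3L1, beside a median over all genes of −0.03 in both. Of 5 matrix proteases and inhibitors only Mmp12 was past it, with medians of 0.35 and 0.74, and of 4 osteoclast genes 0, with medians of −1.11 and 0.02.

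**Figure D3:**
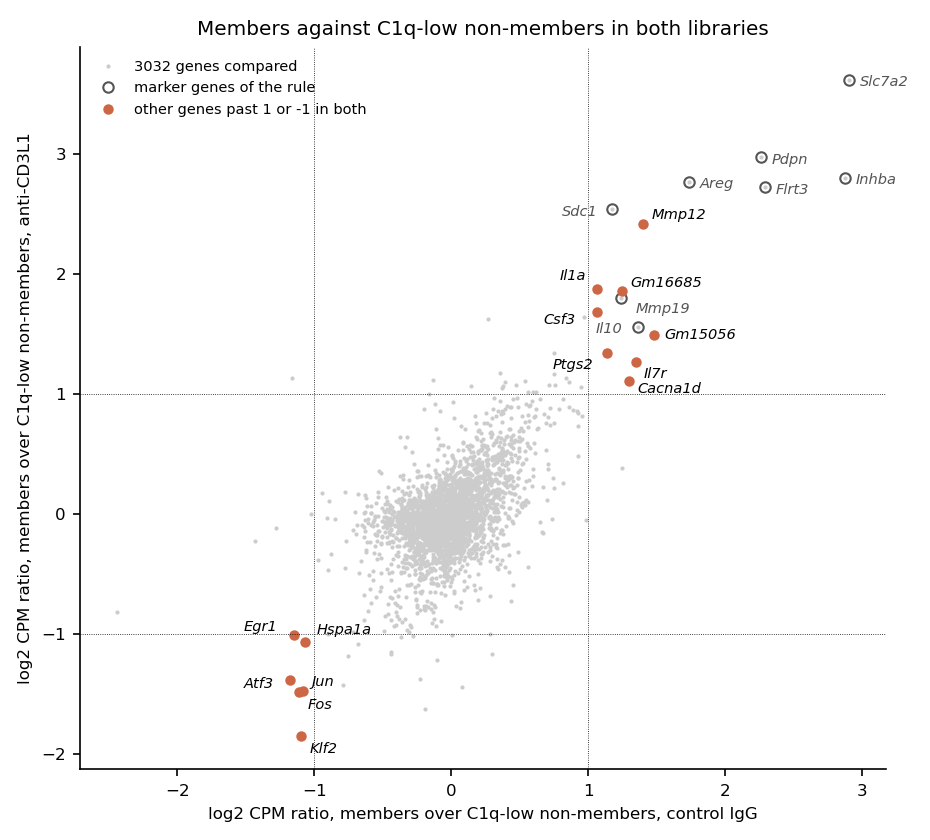
Log2 CPM ratio of members over C1q-low non-members under control IgG (x axis) and anti-CD3L1 (y axis) for the 3032 genes compared, with dotted lines at 1 and −1. The 8 marker genes (open circles) chose the members, and 8 other genes lie above 1 in both libraries and 6 below −1, among them Ptgs2, Il1a, Fos and Atf3.

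Several genes were also read by the number of marker genes found. C1q-low barcodes thinned to 3000 UMIs were split by whether 0, 1, 2 or at least 3 marker genes were found, which gave 465, 546, 334 and 280 barcodes in the control IgG library and 1250, 1084, 710 and 676 in the other. The genes described next were chosen after their values were seen, most of them for a difference between members and non-members, so their order from 0 to 3 or more was largely set by that choice and is given as a description. Cxcl1 had 478, 688, 1003 and 1479 CPM along these steps in the control IgG library and 273, 641, 1225 and 1635 CPM in the anti-CD3L1 library. Met, the receptor of hepatocyte growth factor, had 257, 396, 469 and 593 CPM and then 124.5, 239, 361 and 462 CPM. Fos took the opposite order, with 812, 530, 399 and 283 CPM in the control IgG library and 1519, 937, 580 and 379 CPM in the other. The steps were not of like size. Under control IgG Ptgs2 had 216, 333, 411 and 863 CPM and Il1a 154, 185, 254.5 and 481 CPM, with the largest step at 3 or more, while under anti-CD3L1 Ptgs2 had 78.4, 141, 276 and 330 CPM.

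Adgre1 and monocyte genes gave other orders. Adgre1 was at 154, 167, 136 and 159.5 CPM in the control IgG library and at 105, 118, 123.5 and 109.5 CPM in the anti-CD3L1 library, and neighbouring intervals overlapped. Ccr2, the chemokine receptor of monocytes newly recruited to tissue, was at 299, 289, 281 and 229 CPM in the control IgG library, and at 443.5, 315.5, 235 and 211 CPM in the anti-CD3L1 library. Plac8, a gene of classical monocytes, was at 1791, 1776, 1648 and 1757 CPM in the control IgG library, and at 1789, 1566, 1247 and 864 CPM in the other. In the anti-CD3L1 library both genes were thus lower at more marker genes. In the control IgG library Ccr2 was lower at 3 or more (197 to 263) than at 0 (271 to 329), while the intervals of Plac8 at 0 and at 3 or more overlapped.

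**Figure D4:**
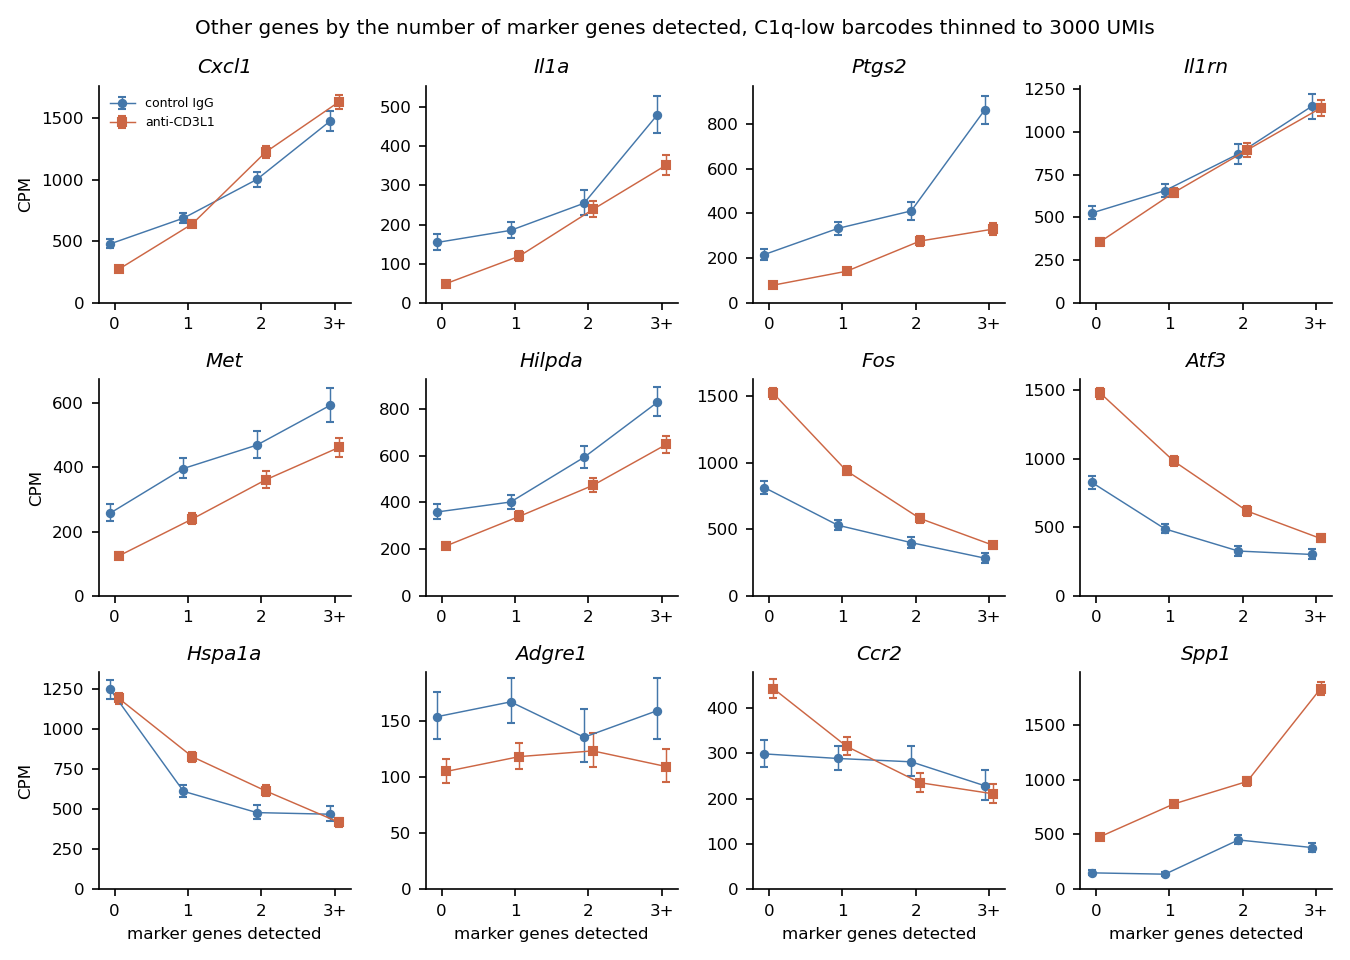
CPM of 12 genes in C1q-low barcodes of the control IgG (circles) and anti-CD3L1 (squares) libraries by the number of marker genes found after thinning to 3000 UMIs, with exact Poisson 95% intervals that cover counting error only. Cxcl1, Il1a, Ptgs2, Il1rn, Met and Hilpda are higher, and Fos, Atf3 and Hspa1a lower, at 3 or more marker genes than at 0 in both libraries, while Adgre1 stays between 105 and 167 CPM.

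Against C1q-high barcodes of the same library, members held more monocyte RNA and less RNA of C1q macrophages, a contrast that the limit on C1q set and that is given as a description. Of 3106 genes compared, 44 (1.42%) had a log2 ratio of at least 1 in both libraries and 57 (1.84%) of at most −1. Vcan, the proteoglycan versican of classical monocytes, led with 354 and 98.8 CPM in members against 23.8 and 16.9 CPM, log2 ratios of 3.90 (3.63 to 4.17) and 2.54 (2.40 to 2.69). Ly6c2, the Ly6C antigen of classical monocytes, had 398 and 619 CPM against 71.7 and 203 CPM. Plac8 and Hp were also past the limit, as were Thbs1, which encodes thrombospondin 1, and F10, coagulation factor X. Of 10 monocyte genes compared, 5 were higher and 0 lower, with medians of 2.26 and 1.17.

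Of 12 C1q macrophage genes other than C1q itself, 7 were lower and 0 higher in members, with medians of −2.05 and −1.41. Ccl8, a monocyte-attracting chemokine, had 6.06 and 33.7 CPM in members and 872 and 1007 CPM in C1q-high barcodes. Folr2, the folate receptor beta of resident macrophages, had 11.6 and 27.7 CPM against 73.1 and 139 CPM, and Selenop, a selenium transport protein, 149 and 162 CPM against 678 and 676 CPM. Apoe was at 1494 and 3649 CPM in members against 13440 and 14963 CPM, and free RNA held 2801 and 8763 CPM of it, more than the members themselves. Of the marker genes, on which the members were chosen, Inhba, Flrt3 and Areg were past a log2 ratio of 1 in both libraries. Slc7a2 was at 3.12 in the control IgG library and at 0.96 in the anti-CD3L1 library, where 40.7% (39.0 to 42.5) of C1q-high barcodes held at least 3 marker genes before thinning, against 27.0% (22.3 to 32.0) in the control IgG library. At 3000 UMIs these shares were 16.0% and 8.28%.

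Ptgs2, Il1b and Csf3 were higher in members than in C1q-high barcodes too. Ptgs2 had log2 ratios of 1.64 and 1.49, and Il1b, the cytokine interleukin-1 beta, of 1.17 and 1.16, with 4751 and 2966 CPM in members. Csf3 was at 2.79 and 1.79, and Il1rn at 0.61 and 0.43, below the limit. Of 15 cAMP and prostaglandin E2 genes compared, Ptgs2, Thbs1 and Adora2a, an adenosine receptor gene, were past the limit, with medians of 0.65 and 0.63 over the list and 0.03 and 0.07 over all genes. Free RNA of the control IgG library held 349 CPM of Ptgs2 and 4913 CPM of Il1b, more Il1b than the members did, and C1q-high barcodes of that library held 154 CPM of Ptgs2 and 2112 CPM of Il1b. If all S100a8 and S100a9 UMIs of the members were free RNA, free RNA would make up 2.77% of their UMIs under control IgG and 14.5% under anti-CD3L1. At that share it would give 136 of the 4751 CPM of Il1b and 9.66 of the 480 CPM of Ptgs2 in the control IgG members. The rule had left out barcodes with 2% or more S100a8 and S100a9, so these shares of free RNA may be low. NK-like barcodes, which had no such limit, held 6097 and 188 CPM of 12 neutrophil markers, against 2251 and 332 CPM in members.

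Between the libraries, several MHC class II and lipid handling genes were higher in the anti-CD3L1 members, and Saa3, Lcn2 and several glycolysis genes lower. Of 3375 genes compared, 138 (4.09%) were at a log2 ratio of at least 1 in anti-CD3L1 over control IgG and 107 (3.17%) at most −1, around a median over all genes of 0.08. A gene was compared if it reached 50 CPM in either library, so one that did so in a single library tended to differ, and the counts for lists are also given for the genes that reached 50 CPM in both.

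MHC class II genes were higher in the anti-CD3L1 members. H2-Aa, an MHC class II chain, had 796 and 2948.5 CPM (log2 ratio 1.89, 1.86 to 1.92) and H2-Ab1 674 and 2603.5 CPM. Ciita, the transcription factor that switches on class II genes, had 12.4 and 60.3 CPM. Of 18 genes of this list 7 were higher and 0 lower, all 7 from the class II pathway (of 16 at 50 CPM in both libraries, 5 and 0), and the class I genes B2m and H2-D1 had log2 ratios of 0.08 and 0.13. H2-Aa was found in 27.6% and 79.1% of thinned members and in 11.4% and 21.5% of NK-like barcodes. In non-members and C1q-high barcodes its log2 ratio was 1.64 and 0.61. Dendritic cells also express class II genes, and in members the summed markers of type 1 dendritic cells stood at 47.8 and 146 CPM, of type 2 at 12.02 and 107 CPM and of mature dendritic cells at 59.5 and 116 CPM. Without the 11 and 117 members that held at least 3 markers of another cell type, the log2 ratio was 1.92 for H2-Aa, 1.99 for H2-Ab1 and 2.36 for Ciita.

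Of 8 alternative activation genes compared 5 had a log2 ratio of at least 1 (Ccl17, Mgl2, Ccl24, Mrc1 and Egr2) and 2 of at most −1, among them Chil3, with a median of 1.32 in members, 1.42 in non-members and 0.77 in C1q-high barcodes. Only 2 of the 8 reached 50 CPM in both libraries, of which 1, Mrc1, was higher, so the count is not read as a change of the list. Ccl24, an eosinophil-attracting chemokine, had 15.7 and 165 CPM, log2 ratio 3.4 (3.17 to 3.63), and Mrc1, which encodes the mannose receptor CD206, had 73.3 and 158 CPM, log2 ratio 1.11 (0.99 to 1.22). Non-members had 54.1 and 127 CPM of Mrc1. In C1q-high barcodes, where Mrc1 was most abundant, it went the other way, from 365 CPM under control IgG to 299 CPM under anti-CD3L1, log2 ratio −0.29 (−0.36 to −0.21). Ccl17 had 2 UMIs in the control IgG members, too few to give a ratio, and 74.5 CPM in the anti-CD3L1 members. There 10 barcodes held 72.7% of its UMIs and 46.6% of those of Mgl2, a lectin listed among type 2 dendritic cell markers. Type 2 dendritic cell markers summed to 12.02 and 107 CPM in members, with Mgl2 the most abundant at 60.5 CPM. Without the 11 and 117 members that held at least 3 markers of a fibroblast, endothelial, mast, dendritic, NK, T, B or plasma cell list, the log2 ratio of Ccl24 was 3.51, and Ccl17 was at 0.0933 and 66.8 CPM, a control level too low to give a ratio.

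Of 17 lipid handling genes 8 were higher and 2 lower (of 14 at 50 CPM in both libraries, 5 and 2), with a median of 0.88 against 0.76 in non-members and 0.74 in C1q-high barcodes. Lpl, lipoprotein lipase, had 25.1 and 232 CPM, a log2 ratio of 3.21 (3.03 to 3.39), but in the control IgG library 10 members held 88.7% of its UMIs. Cd36, a receptor for lipids, had 13.8 and 96.3 CPM, Gpnmb, a lysosomal glycoprotein of foamy macrophages, 35.1 and 177.5 CPM, and Fabp5, a fatty acid carrier, 355 and 1233 CPM. Free RNA held 535 and 1494 CPM of Fabp5, more than the members in both libraries, and 21.1 and 140 CPM of Lpl, less than the members. Spp1, which encodes osteopontin, had 271 and 1424 CPM. Its free RNA level was 273 and 1026 CPM, and at 3000 UMIs it was found in 21.2% (18.4 to 24.3) and 54.0% (51.4 to 56.6) of members and in 20.4% (14.5 to 27.3) and 42.9% (39.6 to 46.3) of NK-like barcodes, so its share in the control IgG members was not above that in NK-like barcodes.

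The genes with the largest ratios in the other direction included Saa3, Mpp7, Ly6c1 and Lcn2. Saa3, serum amyloid A3, had 8656 and 54.4 CPM, a log2 ratio of −7.31 (−7.41 to −7.21). Mpp7, a scaffold protein gene, had 200 and 0.982 CPM, Ly6c1 222 and 2.16 CPM and Lcn2, the iron-binding lipocalin 2, 293 and 4.39 CPM. These genes were lower in the non-members and C1q-high barcodes of the anti-CD3L1 library too, with log2 ratios of −6.28 and −6.97 for Saa3. Free RNA of the control IgG library held 6094 CPM of Saa3 and 3647 CPM of Lcn2. For Lcn2 this was above the level in members, and the 12 neutrophil markers summed to 2251 and 332 CPM in members and to 76830 and 1794 CPM in free RNA, led by S100a8 and S100a9. At the shares of free RNA given above, it would give 169 of the 8656 CPM of Saa3 and 101 of the 293 CPM of Lcn2 in the control IgG members. Those shares may be low, since the rule limited S100a8 and S100a9. The part of neutrophil RNA from other sources was not tested.

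Of 22 glycolysis and hypoxia genes 6 were lower and 0 higher (Slc2a1, Pfkl, Pfkfb3, Pgk1, Slc16a3 and Bnip3), or 3 and 0 among those at 50 CPM in both libraries, with a median of −0.74 in members, −0.65 in non-members and −0.19 in C1q-high barcodes. Slc2a1, the glucose transporter GLUT1, had 172 and 66.0 CPM, and Hif1a, the oxygen-regulated transcription factor, 640 and 327 CPM. Of 12 arginine genes 4 were lower and 0 higher, among them Nos2, the inducible nitric oxide synthase with 69.2 and 3.47 CPM, Ass1 and Slc7a11. Among the 9 at 50 CPM in both libraries 2 were lower, with a median of 0.21. Nos2 was thus lower while the transporter gene Slc7a2 was higher.

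The pathways of the other marker genes were mixed. Among EGF receptor ligands Hbegf had 66.8 and 248 CPM in members, a log2 ratio of 1.89 (1.78 to 2.01), beside 1.18 for Areg, while Nrg1 had 303 and 167 CPM. In non-members the log2 ratio was 0.53 for Hbegf and 0.15 for Areg, and this difference between the sets was not tested. Of 9 activin and TGF-beta genes (8 at 50 CPM in both libraries) only Tgfbi, a secreted matrix protein, was past the limit, with 1430 and 683.5 CPM. None of 12 IL-10 pathway genes was past it in either direction, among them Socs3, a feedback inhibitor of cytokine signalling, at −0.95. Of the prostaglandin genes Ptges, the synthase that acts after COX-2, had 188 and 42.8 CPM and Ptgs2 480 and 268 CPM, log2 ratios of −2.14 and −0.84. Tnf had 233 and 831 CPM, a log2 ratio of 1.84 against 0.77 in non-members and 0.62 in C1q-high barcodes.

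**Figure D5:**
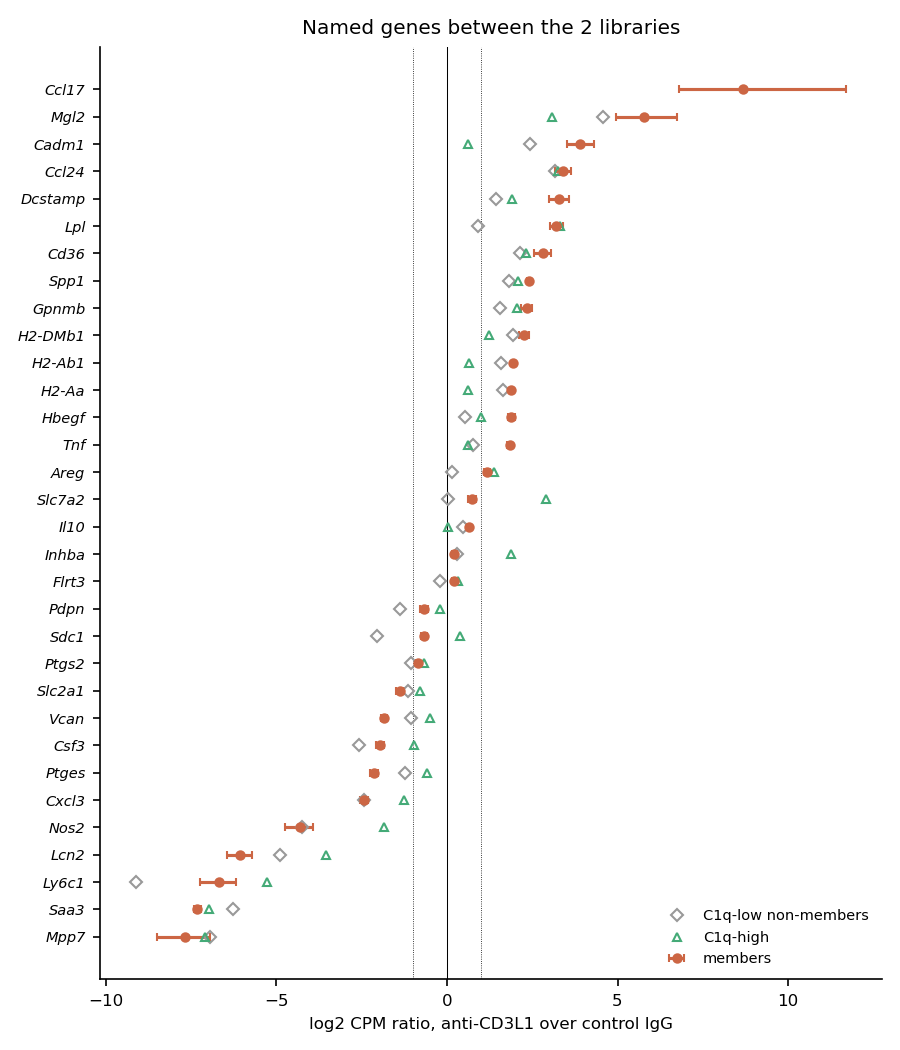
Log2 CPM ratio of anti-CD3L1 over control IgG for 32 named genes in members (filled circles, exact conditional binomial 95% intervals that cover counting error only), C1q-low non-members (diamonds) and C1q-high barcodes (triangles), with dotted lines at 1 and −1. Points of the other sets resting on 3 or fewer UMIs in a library are left out. Saa3 lies between −7.31 and −6.28 in the 3 sets and Ccl24 between 3.17 and 3.4, while Slc7a2 is at 0.74 in members, 0.02 in non-members and 2.90 in C1q-high barcodes.

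A few barcodes carried most UMIs of the collagen genes. Col3a1, Col1a1, Col1a2 and Sparc, genes of matrix-producing stromal cells, were among the 10 genes with the largest ratios between the libraries, for example Col3a1 with 2.66 and 103 CPM. In the anti-CD3L1 library 5 of 1472 members held at least 3 of 7 fibroblast markers. They held 97.6% of the Col3a1 UMIs of all members there, 96.5% of Col1a1, 98.4% of Col1a2 and 97.1% of Sparc, but 0.426% of Inhba and 1.99% of Pdpn. Fibroblast markers summed to 11.01 and 267 CPM in members, with Pdgfra at 0 in the control IgG library, while Pdpn is a gene that fibroblasts also express. Without the members that held at least 3 markers of another cell type the log2 ratio of Sparc was −1.58 and that of Col1a2 −1.29, while that of Inhba was 0.34 and that of Slc7a2 0.83. In this count 37 anti-CD3L1 members held at least 3 type 1 dendritic cell markers, 41 type 2 dendritic cell markers, 21 mature dendritic cell markers and 22 NK cell markers.

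The genes that the study names for these libraries were read in the members. Itpripl1 itself was at 2.84 and 4.26 CPM, or 31 and 65 UMIs in all members, and was found in 0.130% and 0.898% of thinned members. Free RNA held 2.72 and 9.44 CPM of it, which at the above shares of free RNA would give 0.0754 and 1.37 CPM in members. Its share was 1.28% and 2.51% of thinned non-members and 3.85% and 1.65% of thinned C1q-high barcodes. Nrp2, the receptor that the study sets beside CD3L1, was abundant, with 355 and 427 CPM in members, 397 and 214 CPM in non-members and 298 and 336 CPM in C1q-high barcodes. It was found in 47.3% (43.7 to 50.9) and 61.5% (58.9 to 64.0) of thinned members and in 8.38% and 5.90% of NK-like barcodes. Nrp1 was scarcer, with 9.73 and 45.1 CPM. Cd74, the MHC class II invariant chain, had 1836 and 5856 CPM in members and Ccl9, a chemokine of myeloid cells, 158.5 and 702.5 CPM, while Cd86, a costimulatory molecule, had 261 and 350 CPM. The proliferation genes Mki67 or Top2a were found in 13.8% (11.4 to 16.4) and 13.8% (12.1 to 15.7) of thinned members, in 9.45% (7.58 to 11.6) and 8.63% (7.50 to 9.86) of non-members and in 18.6% and 12.4% of C1q-high barcodes. No set that should lack these genes was at hand to give their background, and cycling was not read from them.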

How the data were processed

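CD45-enriched cells of 143B tumors were sequenced as 2 single-cell libraries, control IgG and anti-CD3L1. The deposited values were raw UMI counts per gene and barcode over 32285 mouse genes, made by the authors with Cell Ranger 7.1.0 and including barcodes that hold no cell; the submitters' processing notes also list Seurat 5.1.0 and the build GRCm39 without a role. A further deposited table holds only the authors' fold changes, shares of cells and p-values for macrophages and was not used. The libraries held 74850604 and 108246719 UMIs over 1084690 and 1548857 barcodes, of which 8557 and 11269 passed the limits on UMIs, genes and mitochondrial UMIs.

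UMIs were summed over each set of barcodes and scaled to CPM. For CPM the intervals were exact Poisson ones. Shares had exact binomial and ratios exact conditional binomial intervals. They cover counting error only, since cells of 1 library are not replicates and there was 1 library per group, and no p-value was computed. A gene was compared between the libraries if it reached 50 CPM in a library, and within the libraries if it did so in both. A log2 ratio of 1 or −1 was the limit for counts of genes, in both libraries where sets within a library were compared. Shares of barcodes with a UMI of a gene were read after thinning to 3000 UMIs, which left out 3 and 24 members, unless marked as before thinning. Those with at least 3 markers of a cell type list were read without thinning. NK-like barcodes had no Csf1r UMI and at least 3 of 8 NK cell markers. Scrublet, run through scanpy 1.11.5, marked 1 and 0 barcodes by its own threshold and so did not work as a caller; doublets were left in, and leaving out the 5% of barcodes with the highest scores was an alternative. Those held 2.98% and 5.71% of members.

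The members, the 21 gene lists and the 16 marker lists were chosen with earlier results of these data known. Of 453 listed symbols 447 were in the files under a single gene identifier. Named genes were the 8 marker genes, genes the study names, the 12 highest and 8 lowest against each compared set by the log2 ratio nearer to 0 of both libraries, the 10 largest ratios in each direction between the libraries, up to 4 genes of each list by ratio or level, and the leading marker of each cell type. Met, Ccr2, Mertk and Adgre1 and others outside these were named after their values were seen. The code was tested on simulated counts for the comparison between the libraries over 3375 genes, in which the direction of 100% of 200 changed genes was recovered and the true ratio lay within the interval for 96.5% of the changed and 94.74% of 3175 unchanged genes. Python 3.11.15, numpy 2.4.6, scipy 1.17.1 and pandas 2.3.3 were used, with matplotlib 3.10.9 for plots. Promoter windows were from RefSeq, GRCm38.p6, and were used for their sequence alone. Some genes of the lists are not reported here.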

Additional observations from a re-analysis of the deposited data

Results flagged for a closer look

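Sparc, a matrix glycoprotein gene, had opposite directions between the libraries in the compared sets. Its log2 ratio of anti-CD3L1 to control IgG was 3.58 in members and −1.09 in C1q-high barcodes, and the difference between these was not tested. In the anti-CD3L1 library 97.1% of the Sparc UMIs of the members lay in 5 barcodes with at least 3 fibroblast markers.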

How the results depend on the processing

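No paired analysis was possible because each group had 1 library. The share of members moved with the limits of the rule. Of kept barcodes, members were 13.81% and 20.03% with at least 2 marker genes, 5.177% and 7.827% with at least 4, and 2.627% and 4.452% after thinning to 3000 UMIs, each higher under anti-CD3L1. The anti-CD3L1 share was 12.31% with up to 10% mitochondrial UMIs, 12.14% with C1q under 0.05% and 14.62% with C1q under 0.2%, and the control IgG share was 9.688% with S100a8 and S100a9 under 5%. With at least 4 marker genes, 3 genes in place of 6 were lower than in non-members, among them Fos and Hspa1a of the 6. With a minimum of 20 CPM in place of 50, 256 genes were higher between the libraries, and 77 were higher and 90 lower against C1q-high barcodes. With no minimum but 3 UMIs these counts were 2758 higher and 724 lower between the libraries, 160 and 260 against non-members, 303 and 557 against C1q-high barcodes, and 76 and 46 for listed genes between the libraries. Leaving out barcodes with at least 3 markers of another cell type, an alternative chosen after seeing the data, turned Col1a2 to −1.293 and Sparc to −1.578. Of the values of single named genes under all alternatives, 1593 kept their side of the limit and moved by under 0.5 on the log2 scale, 74 did not, and of genes past the limit these 2 reversed. The median over all genes between the libraries ran from 0 (median of ratios) to 0.1021 (free RNA subtracted). With 1 library per group, depth limits only the counting error, and differences between tumors were not measured.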

Other observations

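Other gene lists were read in the members between the libraries. Here too a gene entered if it reached 50 CPM in either library, and over all 3375 genes so compared 4.09% were higher under anti-CD3L1 and 3.17% lower. The counts are followed by those for the genes that reached 50 CPM in both libraries, which in several lists differ. Of 8 matrix proteases and their inhibitors 3 were higher (Mmp12, Plau and Timp2) and 3 lower (Mmp9, Timp1 and Adam8), and of the 5 at 50 CPM in both libraries 2 were higher and 1 lower. Of 13 matrix and adhesion genes 3 were higher and 3 lower, and among the higher ones Spp1 and Sparc are described above with their free RNA and fibroblast barcodes. Of the 11 at 50 CPM in both libraries 1 was higher and 3 were lower. Of 5 osteoclast genes 1 was higher and 1 lower, but of the 3 at 50 CPM in both libraries 0 were past the limit. The higher one was Dcstamp, which encodes a protein needed for cell fusion, with 9.27 and 90.1 CPM, and 10 barcodes held 68.3% of its UMIs in the control IgG members. The lower one was Mmp9, a matrix protease, with 90.8 and 24.0 CPM, and 10 barcodes held 95.4% of its UMIs in the anti-CD3L1 members. Of 13 monocyte genes 1 was higher and 4 lower, with a median of −0.55, and of the 10 at 50 CPM in both libraries 0 were higher and 2 lower, with a median of −0.46. Vcan had 354 and 98.8 CPM while Ly6c2 had 398 and 619 CPM. Of 8 C1q macrophage genes other than C1q, all at 50 CPM in both libraries, 0 were higher and 2 lower. Of 14 interferon-induced genes 2 were higher and 1 lower, and of the 12 at 50 CPM in both libraries 1 and 0. Of 6 integrated stress response genes 0 were higher and 1 lower, and of 18 immediate-early and heat shock genes 1 and 0, all of them at 50 CPM in both libraries. Of 16 cAMP and prostaglandin E2 genes 1 was higher and 3 lower, and of the 14 at 50 CPM in both libraries 1 and 2. Of 20 inflammatory genes 2 were higher and 3 lower, and of the 17 at 50 CPM in both libraries 2 and 1. Of 3 cell cycle genes none was past the limit.

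Markers of other cell types were summed over the members. Neutrophil markers reached 2251 and 332 CPM and at least 3 of them were found in 86.4% and 4.89% of members before thinning. Monocyte markers reached 2844 and 1969 CPM, and fibroblast markers 11.01 and 267 CPM. Summed NK cell markers stood at 29.3 and 75.4 CPM, led by Gzma, against 90.3 and 365 CPM in free RNA. T cell markers summed to 3.30 and 11.85 CPM, with Cd8a at 0 under control IgG, B cell markers to 16.15 and 33.4 CPM and mast cell markers to 3.85 and 7.33 CPM. Type 1 dendritic cell markers summed to 47.8 and 146 CPM and mature dendritic cell markers to 59.5 and 116 CPM, led by Ccr7. Plasmacytoid dendritic cell markers summed to 165.5 and 169 CPM, of which Tcf4 made up 152 and 134 CPM, while Siglech and Klk1 were at 0 under control IgG. Endothelial markers summed to 51.3 and 50.6 CPM with Cldn5 at 0 in both libraries.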
